A study of Mus musculus and Homo sapiens with 42 samples.

Results

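SNB19 is an established human glioblastoma line, and the libraries described here came from SNB19 cells in which CHD9 was depleted with either of 2 short hairpin RNAs. The members were chosen by sample label: 2 libraries with shRNA1 (hairpin 1) and 2 libraries with shRNA2 (hairpin 2), 4 of the 42 samples of the series. The contrast between the hairpins asks which genes differ between cells that were depleted of the same protein with different reagents. Each hairpin was expressed from a doxycycline-inducible pLKO-tet vector, and per the study's methods the cells received 1 µg/ml doxycycline for 48 h. A further 2 SNB19 libraries carried a hairpin against luciferase (shLuc), which is not a human gene, and received the same drug. Every SNB19 library thus came from cells with an induced hairpin, and the response to doxycycline itself was not part of any contrast. The same 3 hairpins were used in K562, a chronic myelogenous leukemia line, with 2 libraries each, and these libraries served for comparison.

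CHD9 belongs to the CHD family of ATP-dependent chromatin remodelling enzymes, which carry chromodomains and move nucleosomes. A short hairpin RNA is cut by Dicer into a duplex of which 1 strand, the guide, directs an Argonaute protein to messages that pair with it. Full pairing leads to cleavage of the message, as intended for the target gene, whereas pairing of only the seed at the 5′ end of the guide with a 3′ UTR can lower a message in the manner of a microRNA, and hairpins of different sequence differ in their seeds. Use of several hairpins against 1 gene is the usual control for such effects.

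Both hairpins matched the coding sequence of CHD9. The 21-base sites below were read from GENCODE transcripts of GRCh38 and are shown because the differences described further on are set against them. Capitals mark bases 12 to 20, that is the seed site of a fully complementary guide (bases 14 to 20) and the 2 bases before it, which belong to a motif described further on.
Hairpin 1 target: tgcataccagcGTACTAATAa
Hairpin 2 target: ccgagctctctTAGCATATTg
The sites lay at bases 5579 to 5599 (hairpin 1) and 4805 to 4825 (hairpin 2) of a CHD9 transcript of 11509 bases, and each was present in 7 of 21 annotated CHD9 transcripts. Of 19666 protein-coding genes searched with 1 transcript each, CHD9 was the only gene that held either site in full.

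The SNB19 libraries held between 9518169 and 10476231 counts over the genes of the table, and 8758 genes passed the filter on low counts. The table listed 48.9% of annotated protein-coding genes, so that a gene left unmentioned may simply not have been analysed here. Levels are given in CPM, the read counts of a gene scaled to a common library total. Among markers, VIM (2937 to 4867 CPM), CD44 (3224 to 4056 CPM) and NES (1499 to 1708 CPM) were high in all 6 libraries, whereas ALDH1L1 (0 to 0.285 CPM) and OLIG2 (0.299 to 1.71 CPM) were at or near 0. The globin genes HBG1 and HBG2 and the erythrocyte gene GYPB, which mark K562, had no count in any SNB19 library. Of the other K562 markers in the table, HBE1 was at or below 0.103 CPM and EPOR, the erythropoietin receptor, at 16.7 to 21.7 CPM.

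CHD9 was low with both hairpins. Its level was 255 and 245 CPM in the hairpin 1 libraries, 213 and 336 CPM in the hairpin 2 libraries, and 635 and 649 CPM in the shLuc libraries. Neither hairpin group overlapped shLuc, whereas the hairpin 2 libraries lay on either side of the hairpin 1 libraries. In such bulk libraries, fewer cells that express a gene and less of its RNA per cell cannot be told apart. Against shLuc, the log2 fold change was -1.36 for hairpin 1 (edgeR quasi-likelihood test, Benjamini-Hochberg adjusted p = 3.13e-04) and -1.23 for hairpin 2 (adjusted p = 9.71e-04). Between hairpins it was -0.13 ± 0.17 (SE; hairpin 1 minus hairpin 2, adjusted p = 0.702), but this value depended on the hairpin 2 library used: it was 0.23 without replicate 2 and -0.43 without replicate 1. Other family members that the table listed, CHD1, CHD2, CHD5 and CHD6, did not pass the test between hairpins; CHD5, at 0.823 to 3.38 CPM, had the largest value of these, 1.18 (adjusted p = 0.0948).

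The hairpin 2 replicates stood apart from each other more than those of any other SNB19 group. Over all genes tested, the median size of the log2 difference between replicates was 0.243 for hairpin 2, 0.0829 for hairpin 1 and 0.0734 for shLuc, and 195, 102 and 70 genes differed by more than 2-fold, respectively. Replicate 2 was also the nearer to the control, with a root mean square log2 distance to the shLuc libraries of 0.450 and 0.457, against 0.571 and 0.581 for replicate 1. This replicate had the higher CHD9 level as well, and the part of the CHD9 level in its position was not tested. The number of genes called, the median of early response genes and several values for a sequence motif are therefore also given without this replicate. Control positions, calls shared with K562 and the comparison by 3′ UTR length use all libraries.

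**Figure D1:**
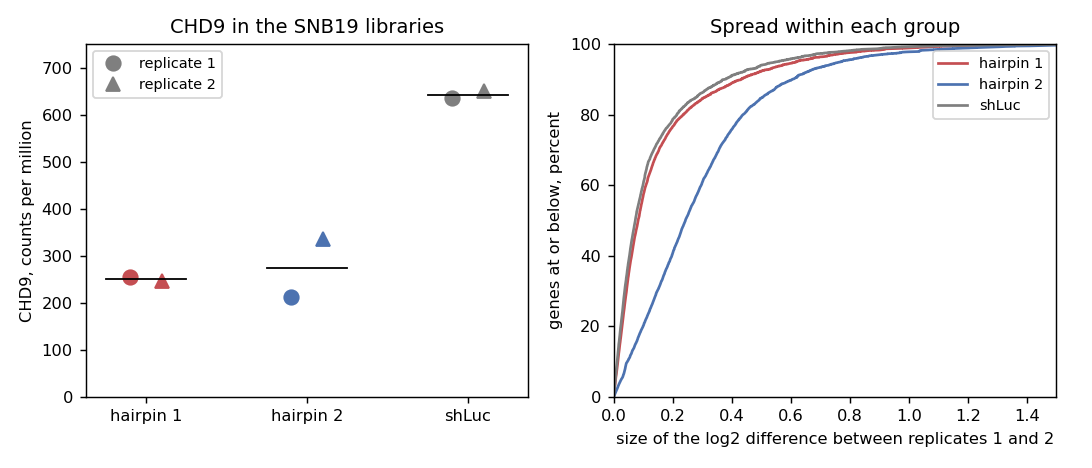
Left, CHD9 in CPM in each SNB19 library (circles, replicate 1; triangles, replicate 2; lines, group means). Right, share of the 8758 genes whose log2 difference between replicates is at or below the value on the x axis. The hairpin 2 replicates straddle hairpin 1 for CHD9, and their curve lies below those of the other groups.

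A set of 137 genes was called between the hairpins in SNB19, at adjusted p under 0.05 and more than 2-fold in either direction (1.56% of genes tested). Of these, 75 were higher (0.856%) and 62 lower (0.708%) with hairpin 1. The libraries of the 2 hairpins did not overlap for any of the 137, although this held for 46.9% of all genes tested and is therefore common with 2 libraries a group. Without a limit on the fold change, 301 genes were higher (3.44%) and 328 lower (3.75%). For comparison, 207 genes were called higher and 320 lower with hairpin 1 against shLuc (2.36% and 3.65%), and 124 and 227 with hairpin 2 against shLuc (1.42% and 2.59%); these contrasts share libraries with each other and with the contrast between hairpins. Leaving out a hairpin 1 library left 78 or 72 of the 137 genes called. Without hairpin 2 replicate 1, 271 genes were called, 121 of them among the 137, and without replicate 2, 217 and 111. In these last fits the spread came only from the hairpin 1 and shLuc pairs, and the fitted biological coefficient of variation was 0.0176 and 0.0178, against 0.0784 with all 6 libraries. The larger counts and the shared calls therefore do not measure how stable the 137 genes are.

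The position of the control differed among these genes. The shLuc mean lay between the hairpin means for 71 of the 137 genes, above both for 32 and below both for 34 (51.8%, 23.4% and 24.8%). Over all genes tested these shares were 21.6%, 39.4% and 39.1%. Genes just inside the fold limit were HIST1H1C (-1.004) and ARHGAP36 (1.007), and just outside it were IL13RA2 (-0.996) and NAT8L (0.986), all on the log2 scale.

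Genes with the smallest p among those higher with hairpin 1 included several that moved in opposite directions from the control. TFCP2L1, a transcription factor of the grainyhead family, was at 28.2 and 27.2 CPM with hairpin 1, at 2.79 and 3.70 CPM with hairpin 2 and at 6.64 and 7.10 CPM with shLuc. It was thus above the control with hairpin 1 and below it with hairpin 2, and the difference between hairpins was 3.09 ± 0.16 on the log2 scale (SE; adjusted p = 1.21e-05), the largest among the 137 genes. The tight junction gene CLDN4 was at 77.8 and 73.3 CPM with hairpin 1, at 20.9 and 18.3 CPM with hairpin 2 and at 42.5 and 44.2 CPM with shLuc (log2 difference between hairpins 1.95, adjusted p = 1.82e-05). AQP1, which encodes a water channel, showed the same order, with 47.2 and 40.1 CPM, 12.1 and 12.7 CPM, and 21.7 and 21.5 CPM (1.82, adjusted p = 6.03e-05). TGFA, a ligand of the EGF receptor, was at 301 and 295 CPM with hairpin 1, at 123 and 97.7 CPM with hairpin 2 and at 184 and 181 CPM with shLuc (1.43, adjusted p = 9.27e-05). In all 4 genes the shLuc libraries fell between the hairpins without overlap.

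In a second pattern, both hairpins were above the control and hairpin 1 more so. UNC5B, a receptor for netrin, reached 351 and 303 CPM with hairpin 1 and 122 and 112 CPM with hairpin 2, against 48.0 and 43.7 CPM with shLuc (1.48, adjusted p = 6.03e-05). The imprinted noncoding RNA MEG3 was at 40.5 and 42.8 CPM, 13.97 and 13.67 CPM, and 10.1 and 9.47 CPM in the same order (1.59, adjusted p = 6.03e-05). Unnamed gene ENSG00000165388 (1.61) and ENSG00000260124 (1.71) had the same order of groups. By contrast, AGR2, a protein disulfide isomerase of the endoplasmic reticulum, was below the control with both hairpins, and more so with hairpin 2. It was at 20.9 and 22.6 CPM with hairpin 1, 4.49 and 5.86 CPM with hairpin 2, and 28.8 and 27.4 CPM with shLuc (2.07, adjusted p = 9.27e-05). Against shLuc it was -0.37 with hairpin 1 (adjusted p = 0.0482) and -2.44 with hairpin 2. MFAP3L did not differ detectably from the control with hairpin 1 (0.18 on the log2 scale, adjusted p = 0.131) and was below it with hairpin 2 (-0.86, adjusted p = 1.68e-04). TBC1D8 and SPRY1 completed the 12 genes, with log2 differences between hairpins of 1.31 and 1.75.

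Of the 12 genes lower with hairpin 1 that had the smallest p, 8 were low with hairpin 1 and did not differ detectably from the control with hairpin 2. The metalloprotease gene ADAM12 was at 184 and 180 CPM with hairpin 1, at 599 and 621 CPM with hairpin 2 and at 589 and 590 CPM with shLuc. The difference between hairpins was -1.75 ± 0.08 (SE; adjusted p = 7.18e-06), and that between hairpin 2 and shLuc 0.05 (adjusted p = 0.698). ACKR3, which encodes an atypical chemokine receptor, was at 22.3 and 26.8 CPM, 109 and 81.2 CPM, and 88.4 and 88.5 CPM in the same order (-1.95 between hairpins, adjusted p = 9.27e-05). TMEM30A, a subunit of phospholipid flippases, was at 333 and 315 CPM, 633 and 713 CPM, and 655 and 690 CPM (-1.06, adjusted p = 1.47e-04). PRSS35 (-1.34), TMX3 (-1.36), SFT2D1 (-1.11), TMEM123 (-1.24) and BROX (-1.11) were likewise lowest with hairpin 1. In these 5 genes hairpin 2 differed from shLuc by -0.30 to 0.04 on the log2 scale, with no adjusted p under 0.05. Over the 62 genes, the fitted shLuc level was nearer to hairpin 2 in 47 (75.8%, beside 58.2% of all genes tested) and nearer to hairpin 1 in 15. In 31 of the 62 the shLuc mean lay between the hairpin means, a position that the selection for a wide gap favours.

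Another 3 of the 12 lower genes departed from this pattern. THBS1, which encodes the matrix glycoprotein thrombospondin 1, was at 832 and 843 CPM with hairpin 1, 2156 and 2003 CPM with hairpin 2, and 1499 and 1517 CPM with shLuc (-1.31, adjusted p = 1.88e-05), so that the control again lay between. SLC38A3, a glutamine transporter, was below the control with both, at 278 and 254 CPM, 545 and 560 CPM, and 1261 and 1269.5 CPM (-1.05, adjusted p = 9.28e-05). For the repulsive guidance cue SEMA3F the control lay with hairpin 1, and the level with hairpin 2 was above both, at 19.7 and 20.3 CPM against 6.37 and 7.07 CPM with hairpin 1 and 7.02 and 8.75 CPM with shLuc (-1.57 between hairpins, adjusted p = 2.71e-04).

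**Figure D2:**
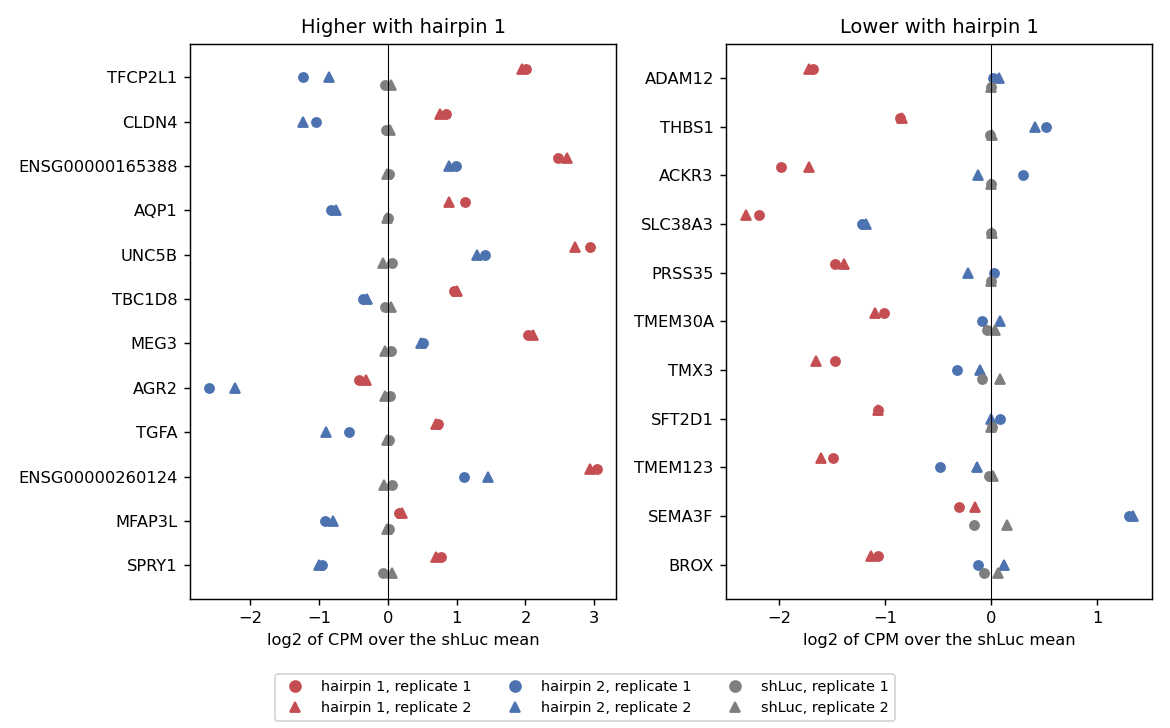
The 12 higher genes with the smallest p and 11 of the 12 lower ones, as the log2 ratio of each library's CPM to the mean of the shLuc libraries (colours, hairpins; circles and triangles, replicates 1 and 2). On the right, hairpin 2 lies at the control for ADAM12, TMEM30A, SFT2D1 and BROX while hairpin 1 lies more than 1 unit below it; on the left, TFCP2L1, CLDN4, AQP1, TBC1D8, TGFA and SPRY1 lie above the control with hairpin 1 and below it with hairpin 2.

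Early response genes and feedback inhibitors of the ERK pathway were the list with the most members called. ERK signalling induces these genes, among which the Sprouty proteins (SPRY1, SPRY2, SPRY4) and the phosphatases DUSP5 and DUSP6 dampen the pathway. Of 15 members tested, 5 were called higher with hairpin 1 and 0 lower, where 0.856% and 0.708% of all genes were. At adjusted p under 0.05 alone, 9 were higher and 1, JUN, was lower (-0.35, adjusted p = 0.0283). The median log2 difference was 0.41 over the 15 members and -0.01 over all genes tested. Over the same 15 members it was 0.36 without hairpin 2 replicate 2 and 0.46 without replicate 1. The list and its members were chosen with earlier results of these data known.

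SPRY1 was at 17.7 and 16.7 CPM with hairpin 1, 5.19 and 5.04 CPM with hairpin 2, and 9.77 and 10.7 CPM with shLuc (1.75 ± 0.15, SE; adjusted p = 1.47e-04). SPRY2 was at 71.9 and 66.9 CPM with hairpin 1, 33.2 and 32.2 CPM with hairpin 2, and 64.9 and 66.2 CPM with shLuc (1.08, adjusted p = 2.04e-04). Its level with hairpin 1 was that of the control within error (0.08 on the log2 scale, adjusted p = 0.544), so that the difference lay with hairpin 2 (-1.002, adjusted p = 1.68e-04). DUSP6 had the same pattern, with 20.9 and 21.1 CPM, 10.2 and 8.12 CPM, and 20.9 and 19.9 CPM in that order (1.19, adjusted p = 8.74e-04). SPRY4 had the other one: it was at 138 and 144 CPM with hairpin 1, 68.0 and 48.1 CPM with hairpin 2, and 61.3 and 66.9 CPM with shLuc (1.28, adjusted p = 6.40e-04). DUSP5, named because it was the remaining member called, was at 22.7 and 24.9 CPM, 11.8 and 10.8 CPM, and 8.73 and 8.44 CPM (1.07, adjusted p = 8.76e-04). All 5 differed between hairpins without overlap, which held for all 137 genes called and for 46.9% of all genes tested. Their position against the control was not shared. SPRY2 and DUSP6 were low with hairpin 2, SPRY4 and DUSP5 were high with hairpin 1, and SPRY1 was both.

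**Figure D3:**
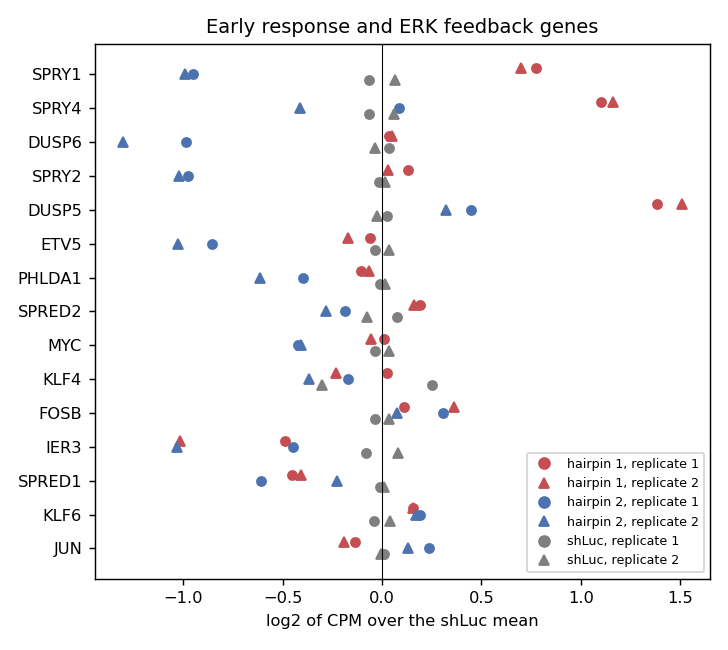
The 15 early response and ERK feedback genes tested, ordered by the difference between hairpins, as the log2 ratio of each library's CPM to the shLuc mean. From SPRY1 down to SPRED2 and MYC the hairpin 1 libraries lie above the hairpin 2 libraries; the hairpins overlap for KLF4, FOSB, IER3 and SPRED1, nearly coincide for KLF6 and are reversed for JUN.

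Of the other lists, 6 had between 1 and 3 members called, to be read beside the 1.56% of all genes called in either direction. Of 13 TGF-beta and YAP target genes tested, 2 were called lower, THBS1 among them, and 0 higher, while AMOTL1 (0.59, adjusted p = 0.00334) and LATS2 (0.52, adjusted p = 0.0134) were higher without reaching 2-fold. Of 19 extracellular matrix genes, COL13A1 was called higher and MMP3 lower. COL13A1, a transmembrane collagen, was at 25.8 and 23.3 CPM with hairpin 1 and 10.98 and 6.07 CPM with hairpin 2 (1.52, adjusted p = 0.00200). Of 16 axon guidance and neural adhesion genes, UNC5B was called higher and SEMA3F and L1CAM lower. L1CAM, a neural adhesion molecule, was at 45.0 and 45.8 CPM with hairpin 1, 130 and 92.3 CPM with hairpin 2, and 45.4 and 44.4 CPM with shLuc (-1.29, adjusted p = 6.64e-04). Its level with hairpin 1 did not differ detectably from shLuc (0.02, adjusted p = 0.944). Beside these counts, the summed level of 7 fibroblast markers, which SNB19 also expresses, was 4254 to 4303 CPM with hairpin 1, 4999 to 5029 CPM with hairpin 2 and 3923 to 4033 CPM with shLuc, with 0 of 6 members called and DCN and LUM at or below 1.54 CPM in all libraries. The sum was carried by COL1A2 (3495 to 4019 CPM) and PDGFRA (518 to 1106 CPM), and members did not move together: FAP was at 7.38 to 11.3 CPM with the CHD9 hairpins and 48.8 and 51.6 CPM with shLuc, and the median difference between hairpins over the 6 members tested was 0.02. Its part in the results was not tested.

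In the stress lists, SLC7A11, the cystine transporter, was called lower with hairpin 1 (341 and 358 CPM, against 568 and 866 CPM with hairpin 2 and 659 and 683 CPM with shLuc; -1.04, adjusted p = 0.00321). The inhibitor of apoptosis BIRC3 was the 1 member called among 7 NF-kB cytokine genes (-1.31, adjusted p = 0.00134). Among 6 p53 target genes, CDKN1A, which encodes the cell cycle inhibitor p21, was higher at 605 and 604 CPM against 351 and 308 CPM (0.88, adjusted p = 3.39e-04) and CCNG1 lower (-0.63, adjusted p = 0.00233), and neither reached 2-fold. The linker histone gene HIST1H1C was at the fold limit (-1.004, adjusted p = 0.00740). No member was called among 25 interferon-stimulated genes, a set that double-stranded RNA can induce; by the edgeR test 6 had an unadjusted p under 0.05, and IFIT1 was lower with hairpin 1 (-0.66, adjusted p = 0.0100). Likewise 0 of 6 genes of the RNA interference machinery and 0 of 13 cell cycle genes were called, with 2 each at an unadjusted p under 0.05, and 21.6% of all genes reached that level. DESeq2 likewise called no member of these 3 lists.

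The same hairpins in K562 gave 221 genes called higher and 148 lower with hairpin 1 (2.41% and 1.61% of 9171 tested). K562 shares no library with SNB19. Of the 137 genes called in SNB19, 74 were tested in K562, and 9 were called there in the same direction and 8 in the opposite one. The sign was shared by 51 of the 74, or 35 of 47 genes higher and 16 of 27 lower in SNB19, beside 55.7% of all genes tested in both lines.

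Genes called in the same direction in both lines included FAM3C, which encodes a secreted protein, with 236 and 235 CPM with hairpin 1 and 82.7 and 107 CPM with hairpin 2 in SNB19 (1.31, adjusted p = 1.91e-04) and a log2 difference of 1.02 in K562 (adjusted p = 2.48e-06). TRIM29 (1.56 in SNB19, 1.72 in K562) and FAM43A (1.09, 1.71) were likewise higher with hairpin 1 in both lines. TMEM123, a cell surface glycoprotein, was the lower gene of this kind with the smallest p: it was at 131 and 121 CPM with hairpin 1 and 263 and 335 CPM with hairpin 2 in SNB19 (-1.24), and at mean levels of 138 and 428 CPM in K562 (-1.63, adjusted p = 2.56e-09). The test of the difference between lines did not call FAM3C (0.30, adjusted p = 0.287), TRIM29 (-0.15, adjusted p = 0.890) or TMEM123 (0.40, adjusted p = 0.0965).

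Other genes were reversed between lines. THBS1, which was lower with hairpin 1 in SNB19, was higher with it in K562, with means of 55.7 CPM for hairpin 1, 3.26 CPM for hairpin 2 and 4.33 CPM for shLuc (4.09, adjusted p = 4.28e-11). L1CAM did the same, at 2.57, 0.827 and 0.997 CPM (1.61, adjusted p = 0.00461). MEG3 and UNC5B went the other way, higher with hairpin 1 in SNB19 and lower in K562 (-0.73 and -0.80). For each of these 4 genes the difference between the lines passed the interaction test, with log2 values, SNB19 minus K562, of -5.39 (THBS1), -2.89 (L1CAM), 2.32 (MEG3) and 2.29 (UNC5B). Over all genes, 90 were called with a higher and 120 with a lower hairpin contrast in SNB19 than in K562 (0.843% and 1.12% of 10671).

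**Figure D4:**
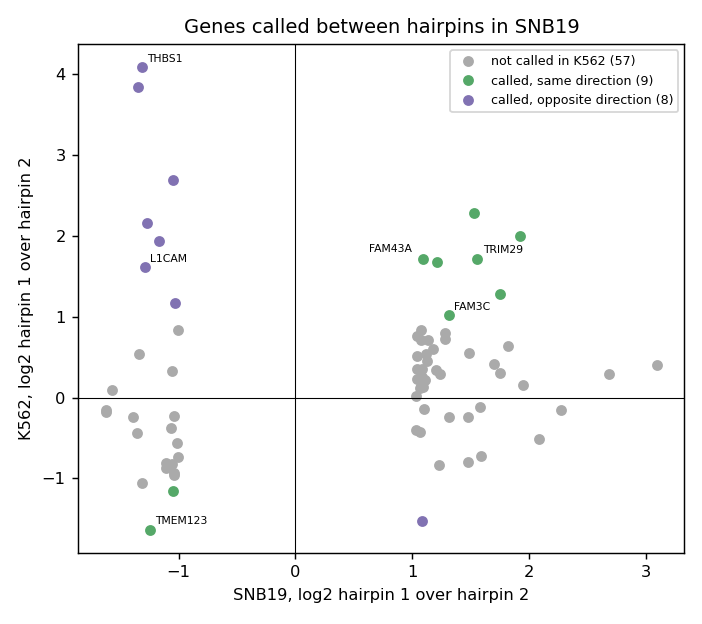
Log2 difference between hairpins in SNB19 (x axis) and K562 (y axis) for the 74 genes called in SNB19 and tested in both lines. The 9 genes called in the same direction are green and the 8 called in the opposite direction purple; THBS1 lies at the upper left. Genes described in the text are named.

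The genes were then searched for matches to the seeds of the hairpins. The guide was taken as the full complement of the target, whose seed site is then ACTAATA (bases 14 to 20), and matches were counted on the message strand of the 3′ UTR of 1 transcript a gene. Of 6723 genes tested with a 3′ UTR, 626 (9.31%) held this motif. Their median difference between hairpins was -0.10, against -0.01 over all 6723. The corresponding site of hairpin 2, GCATATT, was present in 773 genes with a median of -0.05. That of shLuc, GAAATGT, was present in 1443 genes (21.5%) with a median of -0.04, so the control hairpin has seed matches as well. Since the ends at which Dicer cuts a hairpin are not given by its design, all 15 windows of 7 bases along each target were then counted, a choice made after these values were seen. Neighbouring windows overlap by 6 bases, so their counts are not independent.

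The window at bases 12 to 18 of the hairpin 1 target, GTACTAA, had the lowest median of the 30 windows. It was singled out after these SNB19 values were seen, so the SNB19 counts that follow are no separate test of it. The same holds for the SNB19 side of genes lower in both lines. GTACTAA was present in the 3′ UTR of 452 genes (6.72%), whose median difference between hairpins was -0.18. Their median against shLuc was -0.27 for hairpin 1 and -0.09 for hairpin 2. Genes with 2 or more copies (35) had a median of -0.30 and those with 1 copy (417) of -0.17. Of genes called lower that had a 3′ UTR, 15 of 55 held the motif (27.3%), and of those called higher 0 of 60. The 15 were found largely where hairpin 2 lay nearer to the control, with 14 of 41 such genes against 1 of 14 of the others. Without hairpin 2 replicate 2, the median of genes with the motif was -0.08, and 11 of 61 genes called lower held it. Without replicate 1 it was -0.28, with 22 of 87.

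Since genes with the motif have longer 3′ UTRs, they were also compared within classes of length. Among 3′ UTRs of at least 2000 bases, the median difference between hairpins was -0.17 for 321 genes with GTACTAA and -0.01 for 1708 genes without it. Among shorter ones it was -0.19 for 131 genes and -0.01 for 4563. In SNB19, whose values had singled out the motif, genes with it had the lower median in both length classes. The part of 3′ UTR length was not tested. In K562, with its own libraries, the 409 tested genes with the motif had a median of -0.13, against 0.02 over 6430 genes. For 3′ UTRs of at least 2000 bases, the K562 median was -0.07 for 281 genes with the motif and 0.05 for 1568 without it. For shorter ones it was -0.22 for 128 genes with the motif and 0.02 for 4453 without it. Of the 409 genes, 10 were called higher and 11 lower with hairpin 1 in K562 (2.44% and 2.69%), where 162 and 62 of the 6430 were (2.52% and 0.964%), so that genes with the motif were called in both directions there.

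The motif was then counted in genes that differed between the hairpins in both lines. At adjusted p under 0.05 in each line, 99 genes were lower in both (1.35% of 7344 tested in both lines), 90 higher in both (1.23%) and 62 opposite (0.844%). With a 3′ UTR, GTACTAA was present in 47 of 95 genes lower in both lines (49.5%), in 2 of 80 genes higher in both (2.50%) and in 385 of 5834 genes tested (6.60%). Of the genes opposite between lines, 6 of 34 that were lower in SNB19 and higher in K562 held it (17.6%), and 3 of 26 that were higher in SNB19 and lower in K562 (11.5%). The next 3 windows of the hairpin 1 target share 6, 5 and 4 bases with this one. They were present in 22.1% to 25.3% of the 95 genes, beside 9.43% to 12.8% of the 5834 tested. The remaining 11 windows were in 1.05% to 10.5%, beside 0.651% to 8.60%. Of these, the rare windows at bases 11 to 17 (7.37% beside 0.788%) and 10 to 16 (5.26% beside 0.651%) also had larger shares. That at bases 2 to 8 had a smaller one (1.05% beside 3.89%). The windows of the hairpin 2 target were present in 0% to 21.1% of the 95 genes, beside 1.70% to 16.5% of the 5834. Of these, bases 13 to 19 (20% beside 10.7%) and 11 to 17 (20% beside 11.4%) had larger shares, and bases 1 to 7 a smaller one (0% beside 2.59%). In the 80 genes higher with hairpin 1 in both lines, hairpin 2 windows were present in 1.25% to 22.5%. Bases 3 to 9 (22.5% beside 9.72%) and 9 to 15 (20% beside 8.21%) had larger shares there, and bases 1 to 7 a smaller one (1.25% beside 2.59%). In the fits with the smaller fitted spread, GTACTAA was present in 26.7% of genes lower in both lines without hairpin 2 replicate 2. Without hairpin 2 replicate 1 it was present in 29.04%. The fits without a hairpin 1 library had a larger fitted biological coefficient of variation (0.0950 each, against 0.0784 with all libraries). The share there was 71.4% or 70.6% of a smaller set of genes, without hairpin 1 replicate 1 or 2.

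The sites of named genes, aligned to the hairpin 1 target, are given to show how far the match extends. Each line gives 21 bases of a 3′ UTR (RNA written as DNA, GENCODE transcripts of GRCh38), with the unbroken match to the target around bases 12 to 18 in capitals.
Hairpin 1 target: tgcataccagcGTACTAATAa
TMEM30A: ttttgacttaaGTACTAATAt
SFT2D1: aagaccgttttGTACTAAgtc
TMEM123: ccactttttaaGTACTAAgtc
BROX: aacatacagaaGTACTAAata
ADAM12: acttggtaattGTACTAAagc
THBS1: ttacatgttcgGTACTAAgtc
CCNG1: attatgttttaGTACTAAggg
The match was 7 bases long in these genes, except for 9 in TMEM30A, and began at base 12 of the target. Only the first copy in each 3′ UTR is shown, and ADAM12 held 2. Other named genes that are not shown had longer matches. These were 9 bases in TMX3 (bases 11 to 19) and BIRC3 (bases 12 to 20), and 8 in SLC7A11 (bases 12 to 19). TMEM30A, TMX3, SFT2D1, TMEM123 and BROX were lower with hairpin 1 in both lines (K562 log2 differences of -0.82, -0.44, -0.81, -1.63 and -0.87). CCNG1 was lower in both as well (-0.63 in SNB19, -1.40 in K562). In SNB19, however, CCNG1 differed from shLuc by -0.12 with hairpin 1 and by 0.51 with hairpin 2. THBS1 held the motif and was nevertheless higher with hairpin 1 in K562. ACKR3, SLC38A3, PRSS35 and SEMA3F were called lower in SNB19 without GTACTAA. Of these, PRSS35 held 2 copies of ACTAATA, the seed site of the fully complementary guide, whereas ACKR3, SLC38A3 and SEMA3F held none. A match is a description of sequence, and whether these messages are bound by a hairpin strand was not measured.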

How the data were processed

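RNA of 6 SNB19 and 6 K562 libraries was sequenced by the authors after TruSeq preparation on a HiSeq 2000. Per the study's methods, reads of the human lines were aligned to hg37 with TopHat2 (2.1 in the submitters' processing notes) and counted per gene with HTSeq (0.5.3), and the deposited tables hold raw counts per Ensembl gene with 1 column per library. Multimapping and strand settings are not given in the sources used here, so members of close gene families are uncertain. Of 29828 gene IDs, 26967 were paired with a symbol from GENCODE v29, whose build differs, so that only names and transcript sequences were taken from it.

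Counts were analysed in R (4.3.3) with edgeR (4.0.16) and DESeq2 (1.42.0). The 6 libraries of a line were fitted as 3 groups after filterByExpr and TMM scaling, and contrasts were tested with glmQLFTest. Genes were called at Benjamini-Hochberg adjusted p under 0.05 over all genes tested and an absolute log2 fold change above 1. A fit over all 12 libraries gave the difference between lines. CPM were computed from TMM-scaled totals and are not corrected for gene length. The fit was tested on simulated data. Genes were named by rule: the CHD family; among genes called without overlap, the 12 with the smallest p in each direction and the 6 with the smallest p also called in K562 in the same direction; and up to 4 genes of each list by p. Some genes that the rule selects are not reported here. Other genes that are named were chosen after their values were seen. The comparison, the members and the gene lists were chosen with earlier results of these data known. Nothing in the labels says that replicates (exp1, exp2) came from separate cultures, so p-values measure the spread between these libraries, which may be technical. Sites were counted in the 3′ UTR of the transcript with the longest coding sequence of each gene. Hairpin strands were inferred from the vector design.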

Additional observations from a re-analysis of the deposited data

Results flagged for a closer look

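The contrast between hairpins differed between SNB19 and K562 by the test of the difference itself (edgeR interaction term, adjusted p under 0.05 and more than 2-fold). It was higher in SNB19 for 90 genes and lower for 120. Among genes named here, the log2 difference, SNB19 minus K562, was -5.39 for THBS1, -2.89 for L1CAM and -2.41 for the lysyl oxidase LOXL2, each lower with hairpin 1 in SNB19 and higher in K562. It was 2.29 for UNC5B and 2.32 for MEG3, which had the opposite signs in the lines. For TFCP2L1 (2.70), CLDN4 (1.80), AQP1 (1.19), TBC1D8 (1.56), SPRY1 (1.46) and SEMA3F (-1.65), the difference was large in SNB19 and between -0.24 and 0.64 in K562. The value was -1.84 for the metallothionein MT2A and -1.08 for the collagen gene COL1A2, which were not called in SNB19 and were higher with hairpin 1 in K562 (2.21 and 0.94). CACNA1C, a calcium channel gene, had a value of -5.62 but did not pass the filter on low counts in K562 alone.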

How the results depend on the processing

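Without a limit on the fold change, calls rose to 301 higher and 328 lower between hairpins in SNB19, 1237 and 1306 for hairpin 1 against shLuc, 744 and 767 for hairpin 2 against shLuc, 1398 and 1347 between hairpins in K562, and 352 and 381 for the difference between lines. DESeq2 called 95 genes between hairpins in SNB19, of which 94 were among the 137, and gave fewer genes called lower with hairpin 1 (213) or hairpin 2 (137) against shLuc and fewer in K562 (97 higher, 64 lower). Sites of the passenger strand gave medians of -0.035 (hairpin 1) and 0.074 (hairpin 2), and a guide that starts 2 bases later, an alternative chosen after seeing the data, -0.18 for hairpin 1. Other scalings and filters moved no count of these comparisons by more than 1.5 times.

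Single libraries mattered more. Leaving out each in turn gave 46 to 149 genes higher and 30 to 122 lower between hairpins in SNB19, with the low ends without a hairpin 1 library and the high ends without hairpin 2 replicate 1. A hairpin left with 1 library is assumed to vary like the other groups. The fitted biological coefficient of variation was 0.0176 and 0.0178 without hairpin 2 replicate 1 or 2, against 0.0784 with all libraries, so the counts of these 2 fits are no sign of stability and their p-values are not given. For hairpin 2 against shLuc the ranges were 92 to 210 and 154 to 506, both high ends without hairpin 2 replicate 2. In K562, 88 to 185 genes were lower, with the low values without replicate 1 of hairpin 1 (88) or hairpin 2 (92), and for the difference between lines 61 to 154 were higher and 79 to 166 lower, the 154 without SNB19 hairpin 2 replicate 2 and the 79 without K562 hairpin 2 replicate 1. List members called lower numbered 5 to 9, with 5 without hairpin 1 replicate 1. Of the early response genes, 5 were called in each such fit, and the list's median was 0.34 to 0.49 over the 15 or 16 members that passed each fit's own filter. CHD9 between hairpins ranged from -0.43 (without hairpin 2 replicate 1) to 0.23 (without replicate 2). Signs also turned for genes near 0 that were not called: CHD1 ranged from -0.19 to 0.28, CHD2 from -0.16 to 0.14, NFKBIZ from -0.38 to 0.00020 and EPOR from -0.021 to 0.026, and EPOR was -0.011 with no filter on low counts.

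With the experiment number as a replicate block, 76 genes were higher and 63 lower between hairpins in SNB19, 134 of them among the 137, and CHD9 was -0.11 (edgeR adjusted p = 0.721). The deviations of libraries with the same number did not go together (r of 0.02 between the hairpins over 8758 genes, which are not independent), so the numbers were not taken as pairs.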

Other observations

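Lists not described above had no member called between the hairpins by edgeR or DESeq2. Of 14 cholesterol synthesis genes tested, 10 were higher with hairpin 1, with a median log2 difference of 0.22 (0.13 without hairpin 2 replicate 2). Their summed level was 4682 and 4693 CPM with hairpin 1 and 4801 and 3673 CPM with hairpin 2, so that the hairpins overlapped. SREBF2, the transcription factor of the pathway, was at 815 and 785 CPM with hairpin 1 and 645 and 541 CPM with hairpin 2 (0.43, edgeR adjusted p = 0.0227), and 6 of the 14 had an unadjusted p under 0.05. Of 9 Notch pathway genes, DLL1, a ligand, was at 15.1 and 14.8 CPM with hairpin 1, 8.38 and 7.71 CPM with hairpin 2 and 8.16 and 7.82 CPM with shLuc (0.89, adjusted p = 0.00373), and the receptor NOTCH1 was higher too (0.54, adjusted p = 0.0123). The libraries of the hairpins did not overlap for these 3 genes, as for 46.9% of all genes tested. The 13 mitochondrially encoded genes were all higher with hairpin 1 by a small amount (median 0.10, 1 with an unadjusted p under 0.05 and 0 with an adjusted one). Of 13 hypoxia genes (median -0.0035, 0.15 without hairpin 2 replicate 1), 16 synapse and ion channel genes (0.04, 0.087 without replicate 1 and -0.0012 without replicate 2) and 3 metallothioneins (0.22), 6, 5 and 2 had an unadjusted p under 0.05.

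Among markers of the line itself, SOX9, a transcription factor of glial and neural progenitors, was at 369 and 340 CPM with hairpin 1, 583 and 554 CPM with hairpin 2 and 626 and 620 CPM with shLuc (-0.68, adjusted p = 9.71e-04). The receptor PDGFRA was at 670 and 700 CPM, 938 and 1106 CPM, and 518 and 531 CPM (-0.58, adjusted p = 0.00462), and the filament gene VIM at 3453 and 3562 CPM, 4867 and 4407 CPM, and 2937 and 3023 CPM (-0.40, adjusted p = 0.0118). SOX9 was thus low with hairpin 1, whereas PDGFRA and VIM were above the control with both hairpins and more so with hairpin 2.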
